A study of Zea mays with 22 samples.

Results

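Tassel, seedling leaf and adult leaf were the maize organs that received UV-B directly, and 6 of the 22 arrays of the series carry their titles: 2 of tassel, 2 of seedling leaf and 2 of adult leaf. The members were taken by title from the value table that holds 14 of the arrays. Every array set total RNA of an organ after 8 h of UV-B against RNA of the same organ without UV-B in the other colour of the same spots, so each array holds its own control. In each organ the labels give the UV-B sample to channel 1 on array 1 and to channel 2 on array 2. The labels used here give no plant age, dose or number of plants, and do not say whether the arrays of an organ came from separate plants, so a p-value measures only the spread between arrays, which may be technical. In whole organs, fewer cells of a type and less RNA per cell cannot be told apart.

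UV-B is the short-wavelength edge of sunlight that reaches plants. In Arabidopsis it is sensed by the UVR8 photoreceptor, which acts through COP1 and the transcription factor HY5, and at higher doses it also damages DNA and generates reactive oxygen species. Leaves are known to answer it with phenylpropanoid and flavonoid sunscreens, antioxidant and detoxifying enzymes and defence proteins, while transcripts for photosynthesis often decline. A tassel is the male inflorescence, in which pollen develops, so it holds floral as well as green tissue.

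Each value is the log2 ratio of the channels, averaged over 3 neighbouring spots of a probe after the array's median was set to 0. A value of 1 is then a 2-fold ratio, if the base of the logarithm, read from the values and not stated in the labels, is 2. A positive value is taken as higher after UV-B by assumption, since neither the labels nor the table states the direction of the ratio. Because the arrays hold ratios and no levels, they cannot show which organ contained more of a transcript, and the organ labels could not be checked against the levels of marker genes. Of 5640 distinct probes, 399 carried 1 gene name, for 329 genes, so most of what follows on named genes covers a small share of each array.

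Several columns stood apart before any gene was considered. Both tassel columns held 1 profile that differed by a constant of 0.526 at all 15749 spots with a value, although their labels give opposite wirings. The same 15749 values also stood, with a constant of 0, under the title of immature ear array 1, while another profile filled the other 2 immature ear columns, so the organ of the tassel profile rests on a title that 2 organs share. Both seedling leaf columns likewise differed by a constant of 0.0616 at 13331 spots, and array 1 held 3463 further spots. The 6 arrays therefore gave 4 distinct profiles: 1 of tassel, 1 of seedling leaf and 2 of adult leaf, and tassel and seedling leaf had no replicate. The less filled seedling leaf column was used, and values were present for 5331 probes in tassel, 4629 in seedling leaf, 4508 on adult leaf array 1 and 2138 on adult leaf array 2, where only 32.7% of spots held a value. The tables used here hold no intensities, so the precision is limited by the number of arrays. Over the 3 spots of a probe the median SD was 0.0474 in tassel, 0.0621 in seedling leaf, 0.0585 on adult leaf array 1 and 0.0407 on adult leaf array 2, against an SD over probes of 0.353, 0.395, 0.242 and 0.536 in the same order.

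The adult leaf arrays did not move together. Across the 2035 probes that both measured, their correlation was -0.18, and 42.4% of probes had the same sign. Adult leaf array 2 also ran opposite to immature ear (-0.52 over 1946 probes) and to leaf under a PE bag on UV-B exposed plants (-0.35 over 2138 probes). With tassel it had -0.24 (2133 probes), with seedling leaf -0.14 (2126) and with root -0.21 (2121). With the 2 arrays that compare CA-covered with PE-covered leaf it had -0.02 (2098) and 0.09 (2101). Those 2 arrays, also labelled with opposite wirings, correlated with each other at 0.58 as deposited (3286 probes). These points share slide layout and are not independent, and the correlations are given as a description. The direction of adult leaf array 2 is therefore not settled, and results that average it are given with its sign turned as well. Its single values below are as deposited and change sign if it is turned.

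Position on the slide accounted for part of every profile. The print block, 1 of 8 areas of 705 probes, held 21.5% of the variance between probes in tassel, 31.1% in seedling leaf, 13.7% on adult leaf array 1 and 9.22% on adult leaf array 2. The plate, read here as 1 of 59 runs of up to 12 consecutive probe positions over all blocks, held 20.5%, 10.3%, 6.34% and 16.4% in the same order. In seedling leaf the block medians ran between 0.34 in block 5 and -0.39 in block 8, and in tassel between 0.25 in block 4 and -0.23 in block 7. Neighbouring probes of a block, which carry different clones, correlated at 0.51 in tassel, 0.55 in seedling leaf, 0.43 on adult leaf array 1 and 0.34 on adult leaf array 2. Block centring left 0.38, 0.35, 0.33 and 0.23 in the same order. Values after block centring (block medians at 0) are therefore printed for many, but not all, of the values whose sign or size changes by much. Single values are not printed after plate centring (plate medians at 0), and the part of layout in any single value was not tested.

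**Figure D1:**
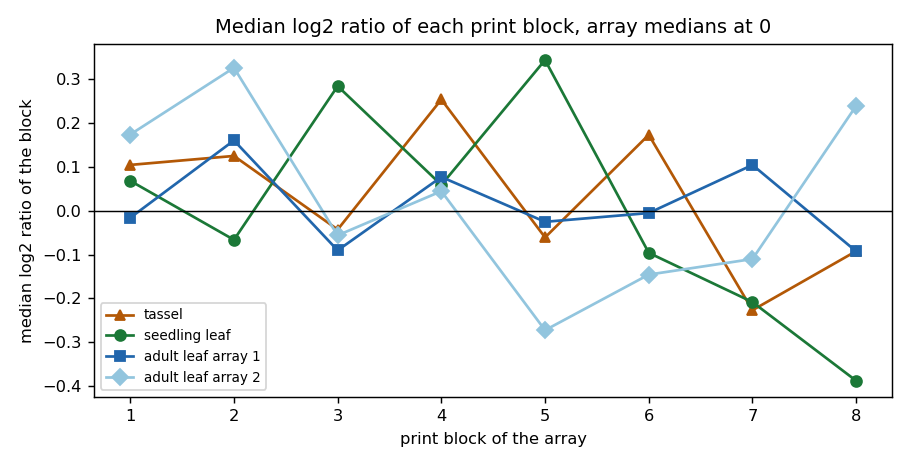
Median log2 ratio (vertical axis, array medians at 0) of the probes in each of the 8 print blocks (horizontal axis), with 1 line for each profile. The seedling leaf profile lies highest in block 5 (0.34) and lowest in block 8 (-0.39), and the tassel profile highest in block 4 (0.25).

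Separate probes of 1 gene often gave different values. Of 56 genes with more than 1 probe, the first 2 probes were both measured for 54 in tassel, with a correlation of 0.30 and the same sign for 32. In seedling leaf the correlation was -0.05 over 43 genes, with the same sign for 17, and on adult leaf array 1 it was -0.10 over 42 genes, with the same sign for 22. A value below therefore belongs to its probe, and other measured probes of the gene are given for part of the genes.

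How far each organ departed from its control was described first. In tassel, 67 of 5331 probes were at least 2-fold higher and 2 were at least 2-fold lower. Seedling leaf had 49 higher and 22 lower among 4629 probes. Adult leaf array 1 had 7 higher and 1 lower among 4508, and array 2 had 95 higher and 16 lower among 2138. As shares these were 1.26% and 0.0375% of tassel probes, 1.06% and 0.475% of seedling leaf probes, 0.155% and 0.0222% on adult leaf array 1 and 4.44% and 0.748% on adult leaf array 2. The tassel profile was lopsided, and so were both adult leaf profiles. In tassel the lowest 1% of probes began at -0.59 and the highest 1% at 1.04. The same limits were -0.88 and 1.01 in seedling leaf, -0.54 and 0.73 on adult leaf array 1 and -0.93 and 1.72 on array 2 as deposited. Skewness, which is 0 for a symmetric profile, was 0.69, 0.17, 0.66 and 1.17 in the same order. With block medians at 0, tassel kept 28 higher and 4 lower probes past 2-fold and seedling leaf 32 and 22. Equal scaling of the arrays raised the count on adult leaf array 1 to 94, against 66 in tassel and 30 in seedling leaf, so the order of the organs by such counts follows the scale chosen for each array.

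**Figure D2:**
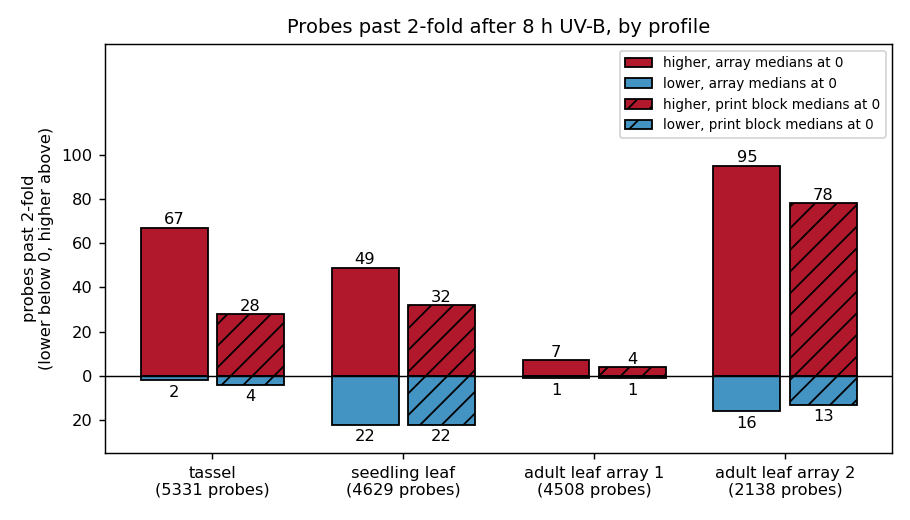
Number of probes at least 2-fold higher (above 0) and at least 2-fold lower (below 0) after 8 h of UV-B in each profile, with array medians at 0 (plain bars) and with print block medians at 0 (hatched bars); the number of probes measured stands under each profile. Tassel has 67 higher against 2 lower probes with array medians at 0 and 28 against 4 with block medians at 0.

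In tassel the highest named probes belonged to sus1, GRF10, met2 and mtl2, the only 4 named probes past 2-fold there, or 1.04% of the 385 named probes measured. The sus1 probe, for a sucrose synthase that splits sucrose for use by growing tissue, stood at 1.37 (1.10 with block medians at 0), and no other exposed organ gave it a value. A second sus1 probe stood at 0.58 in tassel and 0.24 on adult leaf array 1, so both probes of the gene lay above 0. GRF10 had 1.16 in tassel (0.90 with block medians at 0), 0.32 in seedling leaf and 0.13 and 0.02 on the adult leaf arrays. The met2 probe, for a DNA methyltransferase, stood at 1.15 in tassel, where it alone was measured, while the second met2 probe stood at 0.05 in tassel, -0.18 in seedling leaf and 0.01 and 1.03 on the adult leaf arrays. These probes of 1 gene therefore did not share a value. The mtl2 probe had 1.14 in tassel, 0.13 in seedling leaf and 0.73 on adult leaf array 1, which made it past 1.5-fold in both tassel and adult leaf array 1.

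Below these, gtc102, a gene for the SPT16 subunit of a histone chaperone, had 0.91 in tassel, 0.37 in seedling leaf and 0.12 and -0.12 on the adult leaf arrays. A PP1 probe, for a protein phosphatase, had 0.75 in tassel, -0.62 in seedling leaf and 0.33 on adult leaf array 1, and the second PP1 probe had 0.22, 0.39 and 0.06. LOC541988 had 0.75 and TLK2 0.74 in tassel. All 4 stayed above 0.4 in tassel with block medians at 0, at 0.80, 0.57, 0.57 and 0.48 in the order named.

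Named tassel values below 0 were smaller in size. The lowest was prp2, for a proline-rich cell wall protein, at -0.72 in tassel and 0.03 on adult leaf array 1. TIP1-1, an aquaporin of the vacuole membrane, had -0.63 in tassel, -0.78 in seedling leaf and 0.45 and 0.19 on the adult leaf arrays, and its second probe had -0.55, -0.35, 0.18 and -0.91 in the same order. The mbd111 probe, for a methyl-CpG-binding domain protein, stood at -0.63 in tassel, -0.66 in seedling leaf and -0.10 on adult leaf array 1, while the second probe of that gene had -0.03, 0.20 and -0.05. The first probe's seedling leaf value was -0.27 after block centring. A probe for rbcS, the small subunit of Rubisco, had -0.60 in tassel, -0.08 in seedling leaf and -0.52 and 0.51 on the adult leaf arrays, so the tassel profile and the first adult leaf array were low and the second adult leaf array was high. In tassel the 4 probes first named for these genes had -0.89, -0.40, -0.53 and -0.77 after block centring. A glb2 probe (-0.63), LOC542285 (-0.60), LOC541865 (-0.59) and ccp1 (-0.59), a cysteine protease gene, completed the 8 lowest named tassel probes. Over all named probes in tassel, 24 of 385 were at least 1.5-fold higher and 9 at least 1.5-fold lower, which is 6.23% and 2.34%, against 8.59% and 1.11% of all probes.

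In seedling leaf the lowest named probes were those of gln4, cncr1 and L-FNRI, while the lowest of all probes, at -2.53 and -1.57, had no gene name here. The gln4 probe, for a cytosolic glutamine synthetase, had 0.10 in tassel, -1.23 in seedling leaf (-1.14 with block medians at 0) and -0.19 on adult leaf array 1. A cncr1 probe, for cinnamoyl-CoA reductase of the lignin branch, had -0.19 in tassel, -1.19 in seedling leaf and -0.16 on adult leaf array 1, but the second cncr1 probe had -0.18, 0.01 and -0.04. L-FNRI, the leaf ferredoxin-NADP reductase that ends photosynthetic electron transport, had -0.12 in tassel, -1.11 in seedling leaf and -0.67 on adult leaf array 1. After block centring these were -0.02, -0.72 and -0.57, so the probe lay near 0 in tassel, past 1.5-fold in seedling leaf and just short of it on the adult leaf array. These 3 were the only named probes at least 2-fold lower in seedling leaf, or 0.882% of 340 measured.

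The other low seedling leaf probes stood high, low or near 0 in the other organs. A pgl1 probe, for a polygalacturonase, had -0.14 in tassel, -0.92 in seedling leaf and -0.11 on adult leaf array 1, and the 4 other pgl1 probes measured in seedling leaf ran between -0.52 and 0.34. After block centring the first pgl1 probe had -0.53 in seedling leaf, short of 1.5-fold. MRP2 had 0.49 in tassel, -0.89 in seedling leaf and 0.45 on adult leaf array 1. The actin-depolymerizing factor gene adf2 had -0.53 in tassel, -0.78 in seedling leaf and -0.40 and 0.04 on the adult leaf arrays, which block centring changed to -0.43, -0.39, -0.30 and -0.21. TOR, named for the growth-controlling kinase target of rapamycin, had 0.61 in tassel, -0.74 in seedling leaf and 0.25 and 0.50 on the adult leaf arrays. TOR was thus below 0 in seedling leaf and above 0 in tassel and on adult leaf array 1, also after block centring (0.50 in tassel, -0.68 in seedling leaf and 0.10 on adult leaf array 1).

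Among high seedling leaf probes, a thi1-2 probe had -0.30 in tassel, 1.28 in seedling leaf (0.93 with block medians at 0) and -0.11 and 0.08 on the adult leaf arrays. The gene encodes an enzyme that makes the thiazole ring of thiamine, and 2 other thi1-2 probes had -0.24 and 0.16 in seedling leaf. A probe for ATP2, the beta subunit of ATP synthase, had -0.42 in tassel, 1.02 in seedling leaf and 0.15 and -0.63 on the adult leaf arrays, and its second probe had -0.32 in seedling leaf. After block centring the first ATP2 probe had 0.67 and thi1-2 0.93 in seedling leaf, both short of 2-fold. These 2 were the only named probes at least 2-fold higher in seedling leaf (0.588% of 340). The small GTPase gene rop1 had 0.35 in tassel, 0.96 in seedling leaf and 0.02 on adult leaf array 1, and was 1.05 in seedling leaf with block medians at 0. A glb2 probe, for a seed globulin, had 0.92, sam2 0.92, the starch synthase gene du1 0.88, PUMP, a mitochondrial uncoupling protein gene, 0.80 and an mgs1 probe 0.79 in seedling leaf. Of these, glb2, sam2, PUMP and mgs1 lay in blocks 3 and 5, the blocks of highest median in seedling leaf, and had 0.63, 0.63, 0.45 and 0.45 with block medians at 0. The du1 probe lay in block 7, where the seedling leaf median was -0.21. After block centring du1 had 1.09 in seedling leaf, the highest of these 8 named probes. On the adult leaf arrays du1 had 0.40 and -0.79. Over all named probes in seedling leaf, 22 were at least 1.5-fold higher and 23 at least 1.5-fold lower, which is 6.47% and 6.76%, against 7.69% and 4.62% of all probes.

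Adult leaf was the only organ with distinct arrays to set against each other. No probe passed limma's moderated test of the mean against 0 at an adjusted p of 0.05 (0 of 2035 probes measured on both arrays, 0%), and 128 had an unadjusted p under 0.05. The count followed each array: without array 1 the fit called 493 of 2063 probes, and without array 2 it called 7 of 3108, the lone array being assumed to vary like the pair of arrays that compare CA-covered with PE-covered leaf. With array 2 turned, 0 probes passed and 316 had an unadjusted p under 0.05. On both arrays as deposited, 4 probes were at least 1.5-fold higher and 1 at least 1.5-fold lower, against 7 higher and 9 lower with array 2 turned.

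The named probe of smallest p was PDIL1-2, for a protein disulfide isomerase that forms disulfide bonds in new secretory proteins. It had -0.58 in tassel, -0.43 in seedling leaf and 0.53 and 0.71 on the adult leaf arrays (adult leaf mean 0.62, SE 0.15, limma adjusted p = 0.712). Its other probes had 0.02 and 0.00 on adult leaf array 1, and the 1 measured on array 2 had -0.35. An elongation factor gene, elfa2, had -0.44 in tassel, -0.43 in seedling leaf and 0.28 and 0.66 on the adult leaf arrays. The chaperone gene hsp70-4 had 0.11 and 0.90, and psbs1, for the PsbS protein that protects photosystem II from excess light, had 0.17 and 0.81. TOR, por, PIP1-1 and a met2 probe completed the 8 highest by p with means between 0.38 and 0.52. On the low side, LOC541942 had -0.22 and -0.94, the profilin gene PRO5 -0.20 and -0.86, psei2 -0.25 and -0.68, the sulfite reductase gene sir -0.20 and -0.80, and the histone deacetylase gene HDA108 -0.19 and -0.70. On adult leaf array 1 another PRO5 probe had 0.05 and another PIP1-1 probe -0.09, and neither had a value on array 2. The low probes of xyl1, PER1 and dbf1 had means of -0.37, -0.32 and -0.30. Array 2 lay farther from 0 than array 1 at all 16 of these named probes, and limma's adjusted p was 0.712 for each. The mean of each of the 16 therefore changes sign with array 2 turned, to between -0.51 and -0.09 for the 8 high probes (PDIL1-2 to -0.09) and between 0.07 and 0.36 for the 8 low ones.

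The adult leaf array 1 profile alone had 5 named probes at least 1.5-fold higher and 1 lower, which is 1.47% and 0.294% of 340 named probes, against 2.15% and 0.71% of all probes. A cys2 probe, listed here with the sulfur assimilation genes, had -0.53 in tassel, -0.55 in seedling leaf and 0.84 on adult leaf array 1, and the second cys2 probe had 0.04, -0.27 and -0.35. The small GTPase gene rop7 had -0.40 in tassel and 0.65 on adult leaf array 1.

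What the organs shared was read from tassel, seedling leaf and adult leaf array 1, leaving aside adult leaf array 2, whose direction is unsettled. Of 4257 probes with a value in all 3, 787 (18.5%) were above 0 in all and 720 (16.9%) below 0 in all. Named probes gave 57 (17.5%) and 53 (16.3%) of 325. At least 1.5-fold in the same direction in all 3 were 3 probes on the high side (0.0705%) and 0 on the low side, and none was past 2-fold in all. Block centring gave 2 high and 4 low probes past 1.5-fold in all 3. Plate centring gave 0 on either side, with 719 probes (16.9%) above 0 in all 3 and 676 (15.9%) below 0 in all. The 3 high probes had no gene name here and all lay in block 1. The one printed next to the si1 probe had 0.84 in tassel, 0.77 in seedling leaf and 0.89 on adult leaf array 1, and none of the 3 had a value on adult leaf array 2.

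No named probe passed 1.5-fold in all 3 profiles. The nearest was si1 (silky1), a MADS-box gene of floral organ identity, with 0.62 in tassel, 0.49 in seedling leaf and 0.54 on adult leaf array 1, and 0.52, 0.43 and 0.57 with block medians at 0. GLN6, a second glutamine synthetase gene, had 0.39 in tassel, 0.58 in seedling leaf and 0.40 on adult leaf array 1. Its neighbour on the slide, a probe of the beta-glucosidase gene glu1, had 0.41, 0.45 and 0.38, while the second glu1 probe had 0.07, -0.17 and 0.53. A TIP2-1 aquaporin probe had 0.59 in tassel, 0.39 in seedling leaf and 0.33 and -0.22 on the adult leaf arrays. LOC542243, the aquaporin gene SIP1-1, the phosphate transporter gene pht7 and elfa3, for elongation factor 1-alpha, followed, with values between 0.26 and 0.69 in the 3 profiles. After block centring all 8 probes were above 0 in all 3, the smallest value being SIP1-1 at 0.06 in tassel. Second probes did not follow for TIP2-1 (-0.05, -0.28 and 0.00), pht7 (0.11, -0.30 and -0.20) and elfa3 (-0.03, -0.43 and 0.05), in the order tassel, seedling leaf and adult leaf array 1.

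On the shared low side, PPDK, the pyruvate phosphate dikinase of C4 photosynthesis, had -0.58 in tassel, -0.59 in seedling leaf and -0.43 on adult leaf array 1. It lay in block 8, and with block medians at 0 its values were -0.48, -0.20 and -0.33. The alpha-tubulin gene tua4 had -0.54 in tassel, -0.52 in seedling leaf and -0.26 on adult leaf array 1, and adf2, a second cytoskeleton gene, stood at -0.53, -0.78 and -0.40. Adult leaf array 2 as deposited gave 0.35 for PPDK, 0.56 for tua4 and 0.04 for adf2, and all 3 lie below 0 with that array turned. Block centring of the array as deposited gave 0.10, 0.22 and -0.21. The next low probes were pgl1, the homeobox gene wox13A, the centromeric histone gene cenH3, LOC732740 and the cellulose synthase gene CesA-8, between -0.21 and -0.59, and after block centring CesA-8 stood at 0.01 in seedling leaf. Of the 50 probes with the lowest maximum over the 3 profiles, 28 lay in block 8, against 5 with block medians at 0, and of the 50 with the highest minimum 18 lay in block 2 and 0 in block 8. Block centring raised the number of the 50 lowest in block 2 from 5 to 17 and of the 50 highest there from 18 to 21. The shared probes thus stayed unevenly spread over the blocks.

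**Figure D3:**
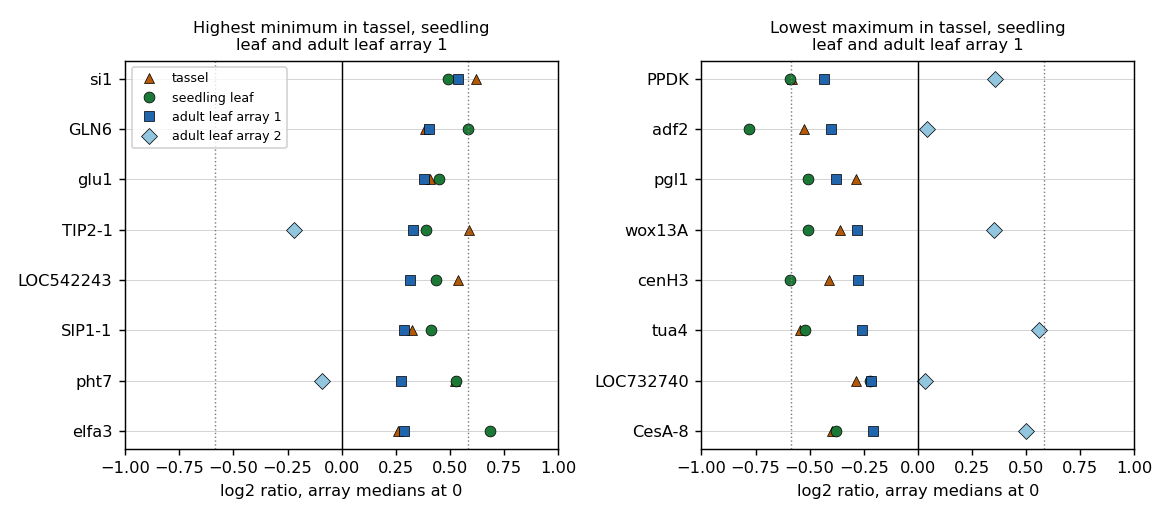
Log2 ratio (horizontal axis, array medians at 0) of the 8 named probes with the highest minimum (left) and the 8 with the lowest maximum (right) over tassel, seedling leaf and adult leaf array 1, with 1 mark for each profile and dotted lines at 1.5-fold. The si1 values lie between 0.49 and 0.62, and adult leaf array 2, drawn as deposited although its direction is unsettled, lies above 0 at all 6 of the low probes it measured, of which adf2 has -0.21 with block medians at 0.

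When adult leaf array 2 was added, 91 of 2024 probes (4.5%) were above 0 in all 4 profiles and 92 (4.55%) below 0 in all, and 0 were past 1.5-fold. With that array turned the counts were 244 (12.1%) and 286 (14.1%). Of 159 named probes with all 4 values, 2 (1.26%) were above 0 in all 4. These were In2-1, a safener-inducible gene of the glutathione transferase kind, with 0.38 in tassel, 0.25 in seedling leaf and 0.28 and 0.07 on the adult leaf arrays, and GRF10. After block centring both stood below 0 on adult leaf array 2 (-0.09 and -0.03). Below 0 in all 4 were 10 named probes (6.29%), and each of these named probes, high or low, leaves its list with adult leaf array 2 turned. Of the 8 lowest, 3 were of growing cell walls: CesA-6 had -0.16 in tassel, -0.59 in seedling leaf and -0.13 and -0.33 on the adult leaf arrays, EXPB9, a beta-expansin that loosens walls, had -0.06, -0.34, -0.14 and -0.34, and expa2, an alpha-expansin gene, had -0.54, -0.31, a value within 0.01 below 0, and -0.18. The other EXPB9 probes, measured in tassel alone of these profiles, stood at 0.08 and 0.54. LOC542285, the proton pump gene mha4, nfc102, sfr2 and the ribosomal protein gene RPL27A were the other 5. After block centring 4 of the 8 were still below 0 in all 4 profiles, and EXPB9 (0.04 in tassel and 0.05 in seedling leaf), nfc102, sfr2 and RPL27A (0.12 on adult leaf array 2) were not. As background to the 3 cell wall probes, cell wall genes held 8 of the 165 named probes measured on adult leaf array 2.

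The extremes of the profiles overlapped in part. Of the 200 lowest probes of each profile, tassel and seedling leaf shared 26 (13% of each list), tassel and adult leaf array 1 31 (15.5%), and seedling leaf and adult leaf array 1 42 (21%), where a list holds 4.7% of the 4257 probes. Of the 200 highest, tassel and seedling leaf shared 5 (2.5%), tassel and adult leaf array 1 33 (16.5%), and seedling leaf and adult leaf array 1 14 (7%). Block centring gave 8 (4%), 35 (17.5%) and 24 (12%) for the highest. Across probes the correlation was 0.24 between tassel and seedling leaf (4595 probes), 0.32 between tassel and adult leaf array 1 (4473 probes) and 0.12 between seedling leaf and adult leaf array 1 (4276 probes), all from separate slides with a common layout. Block centring gave 0.26, 0.33 and 0.22, and plate centring 0.17, 0.28 and 0.07. After plate centring seedling leaf and adult leaf array 1 had the same sign at 49.6% of probes, against 51.8% with array medians at 0. With profiles of shielded tissue, tassel had 0.39 with immature ear (the profile of its other 2 columns), 0.33 with root and 0.28 with leaf under a PE bag. Seedling leaf had 0.21 with immature ear, 0.07 with root and 0.07 with leaf under a PE bag. Adult leaf array 1 had 0.11, 0.14 and 0.19 in the same order. Block centring gave 0.52, 0.33 and 0.28 for tassel, 0.14, 0.06 and 0.15 for seedling leaf and 0.15, 0.14 and 0.22 for adult leaf array 1. The difference between these correlations was not tested.

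**Figure D4:**
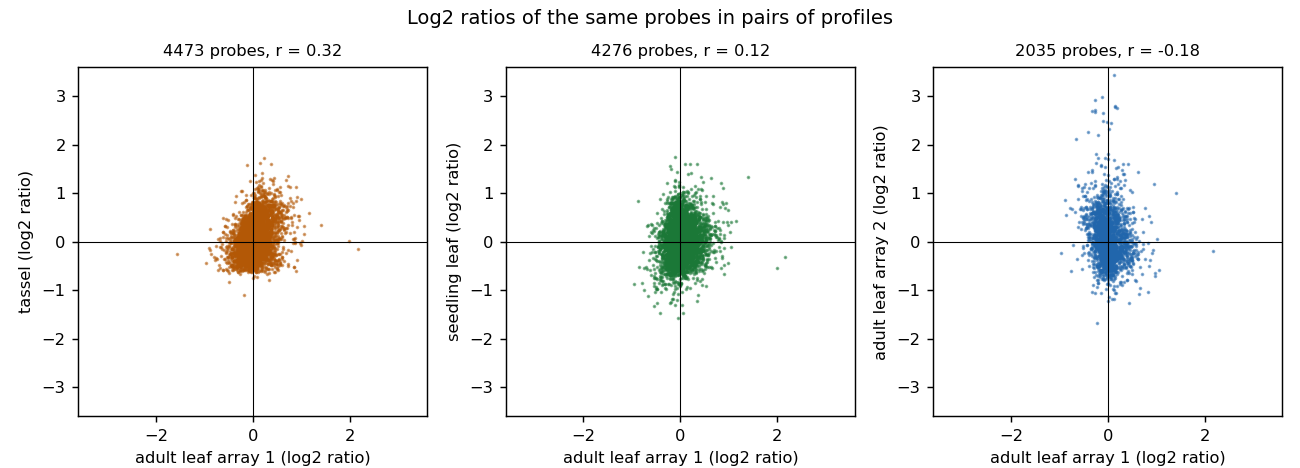
Log2 ratios of the same probes, with adult leaf array 1 on each horizontal axis and tassel (left), seedling leaf (middle) and adult leaf array 2 (right) on the vertical axes, 1 point for each probe and array medians at 0. The clouds lean weakly upward for tassel (r = 0.32) and seedling leaf (r = 0.12) and downward for adult leaf array 2 (r = -0.18).

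The differences between organs were tested as contrasts in the limma fit, the lone tassel and seedling leaf profiles being assumed to vary like the pairs of arrays. No probe passed an adjusted p of 0.05 in tassel minus seedling leaf (0 of 3311, 0%), tassel minus adult leaf (0 of 2032, 0%) or seedling leaf minus adult leaf (0 of 2027, 0%). At an unadjusted p under 0.05 there were 232, 182 and 218 probes. These counts too rested on the adult leaf arrays. Without array 1 the contrasts called 98, 619 and 533 probes, and without array 2 they called 98, 8 and 33.

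Between tassel and seedling leaf the named difference of largest size was at thi1-2, -0.30 in tassel and 1.28 in seedling leaf, a difference of -1.58 (SE 0.33, limma adjusted p = 0.683). TOR differed by 1.35 (0.61 in tassel, -0.74 in seedling leaf; SE 0.32), MRP2 by 1.38, PP1 by 1.36 and gln4 by 1.34. The aba1 probe, of the Asr family named for abscisic acid, stress and ripening, had 0.62 in tassel and -0.63 in seedling leaf. After block centring the differences at thi1-2, TOR, MRP2, PP1, gln4 and aba1 were -1.17, 1.18, 1.11, 1.09, 1.06 and 1.07. Beside thi1-2, the named probes lower in tassel were ATP2, LOC542727, PIP1-3, ypt1 and sam2. These 6 ran between -0.42 and 0.16 in tassel and between 0.425 and 1.28 in seedling leaf. All lay in blocks 5 and 3, the blocks of highest median in seedling leaf, where block centring gave 0.08 to 0.93.

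Between tassel and adult leaf, PDIL1-2 differed by -1.20 (SE 0.27, limma adjusted p = 0.526), with -0.58 in tassel and 0.53 and 0.71 on the adult leaf arrays, and GRF10 by 1.09 (SE 0.26). TIP1-1 differed by -0.95, the glb2 probe of block 7 by -0.92, elfa2 by -0.91, gtc102 by 0.91, and NNR1, a nitrate reductase gene, by 0.80. Further named probes on the low side were tif5A (-0.70), for translation initiation factor 5A, and rca1 (-0.79), for the Rubisco activase, and on the high side LOC541988 (0.94), aldh5 (0.79) and xyl1 (0.76). All of the named low probes here lay in block 7, whose median was -0.23 in tassel, and with block medians at 0 their differences ran between -0.49 and -0.99. With adult leaf array 2 turned the 12 differences kept their sign but were mostly smaller: PDIL1-2 had -0.49, the 6 low probes ran between -0.77 and -0.25, and the 6 high ones between 0.17 and 1.11.

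Between seedling leaf and adult leaf, thi1-2 differed by 1.30 (SE 0.29, limma adjusted p = 0.397), with 1.28 in seedling leaf and -0.11 and 0.08 on the adult leaf arrays. The glb2 probe of block 3 differed by 1.08, xyl1 by 1.10, PUMP by 1.04, psei2 by 1.02 and HDA108 by 0.99. TOR (-1.12), TIP1-1 (-1.10), PDIL1-2 (-1.05), rca1 (-0.91), elfa2 (-0.90) and aba1 (-0.88) differed in the other direction. Of the 6 high probes, 5 lay in block 5, the block of highest median in seedling leaf, and with block medians at 0 those 5 differences ran between 0.50 and 0.80. Turning adult leaf array 2 kept all 12 signs, with high probes between 0.29 and 1.37 and low probes between -0.91 and -0.24.

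**Figure D5:**
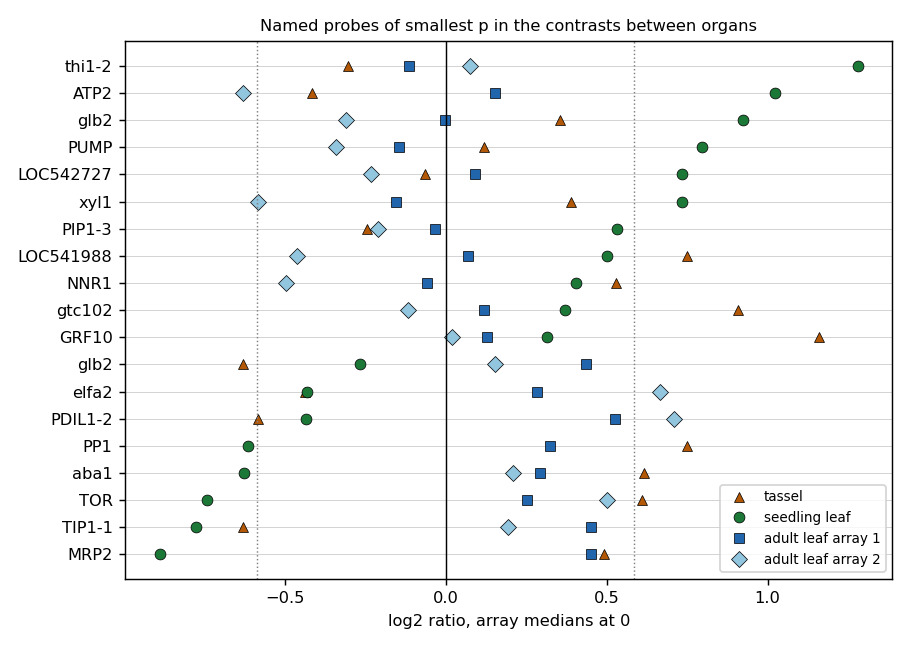
Log2 ratio (horizontal axis, array medians at 0) of the up to 4 named probes each way of smallest p in each of the 3 contrasts between organs, ordered by their value in seedling leaf, with 1 mark for each profile and dotted lines at 1.5-fold. The thi1-2 probe lies at 1.28 in seedling leaf and between -0.30 and 0.08 in the other profiles, and TOR at -0.74 in seedling leaf and between 0.25 and 0.61 in the others, with adult leaf array 2 as deposited.

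Gene groups were described by the medians and counts of their probes, beside a median of 0.00 or 0.01 over all probes in every profile and the shares past 1.5-fold given above. On adult leaf array 1, 2.15% of all probes were at least 1.5-fold higher and 0.71% lower, and on array 2 these shares were 15.2% and 6.5%. None of the groups held a probe that passed limma's adjusted p in any test. With adult leaf array 2 turned, its medians below change sign.

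Photosynthesis genes did not share 1 direction over the organs. Light harvesting, photosystem and chlorophyll genes had a median of 0.22 in tassel (10 probes), -0.09 in seedling leaf (10), 0.13 on adult leaf array 1 (9) and 0.55 on array 2 (3). After block centring these medians were 0.07, -0.02, 0.06 and 0.35. In seedling leaf 3 of the 10 were at least 1.5-fold lower, namely L-FNRI, pgr5 and lhcb5, the last named after its values were seen. The pgr5 gene, which takes part in cyclic electron flow, had -0.21 in tassel, -0.68 in seedling leaf (-0.30 after block centring, short of 1.5-fold) and -0.14 on adult leaf array 1. The light-harvesting gene lhcb5 had 0.53, -0.60 and -0.17 in the same order. Carbon fixation genes had a median of -0.11 in tassel (8 probes), -0.31 in seedling leaf (7) and -0.08 on adult leaf array 1 (6), with 6 of 7 below 0 in seedling leaf, but 0.48 on array 2 (4 of 4 above 0). Block centring moved the seedling leaf median to -0.09. Beside PPDK and rbcS, rca1 had -0.43 in tassel, -0.55 in seedling leaf and 0.18 and 0.54 on the adult leaf arrays.

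Groups usually tied to UV-B came next. Phenylpropanoid and lignin genes had a median of -0.18 in tassel (1 of 5 above 0), 0.19 in seedling leaf (4 of 5), -0.05 on adult leaf array 1 (1 of 5) and 0.33 on array 2 (2 of 3). One of them, cncr1, was past 1.5-fold in seedling leaf, at -1.19. PAL1, for the entry enzyme phenylalanine ammonia-lyase, had 0.06 in tassel, 0.19 in seedling leaf and -0.05 and -0.46 on the adult leaf arrays, and 4CL, the next enzyme but one of the pathway, had -0.10, 0.19, -0.18 and 0.69. Oxidative stress and detoxification genes had a median of 0.12 in tassel and 0.07 in seedling leaf (7 of 12 above 0 in each) and -0.01 on adult leaf array 1 (5 of 12). The superoxide dismutase gene Sod4A had 0.52 in tassel, 0.61 in seedling leaf and 0.22 on adult leaf array 1 and the aldehyde dehydrogenase gene aldh5 0.66, -0.20 and 0.10. Block centring gave Sod4A 0.57, 0.31 and 0.32 in the same order, short of 1.5-fold in each. Defence and proteinase inhibitor genes had medians between -0.03 and 0.16 in those 3 profiles and none past 1.5-fold there, and on adult leaf array 2 pr5 (0.79) and psei2 (-0.68) were past it. Jasmonate genes were 3 probes, of which opr8 had 0.35 and opr6 0.28 in tassel and aos1 had 0.28 on adult leaf array 1.

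Cell wall genes had a median of -0.17 in tassel (11 of 16 below 0), -0.29 in seedling leaf (8 of 12), -0.06 on adult leaf array 1 (10 of 12) and -0.31 on array 2 (6 of 8), and 1 probe in each of tassel and seedling leaf was at least 1.5-fold lower. After block centring the medians were -0.15, -0.03, -0.07 and -0.17. Cytoskeleton genes had -0.40 in tassel (4 of 5 below 0), -0.52 in seedling leaf (4 of 5), -0.20 on adult leaf array 1 (3 of 5) and 0.04 on array 2 (1 of 3), and with block medians at 0 they had -0.34, -0.39, -0.17 and -0.21. Translation factors had -0.20 in tassel (6 of 8 below 0) and -0.22 in seedling leaf (5 of 8), but 0.13 on adult leaf array 1 (1 of 7 below 0). Ribosomal protein genes had -0.04 in tassel (5 of 7 below 0), 0.38 in seedling leaf (2 of 7) and 0.02 on adult leaf array 1 (3 of 6), and the seedling leaf median was 0.03 with block medians at 0. Cysteine protease genes were below 0 at all 4 probes in tassel (median -0.35) and 3 of 4 in seedling leaf (-0.35), but at 1 of 4 on adult leaf array 1 (0.18).

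Chromatin genes had a median of -0.16 in tassel (15 of 20 below 0), 0.13 in seedling leaf (7 of 17) and -0.03 on adult leaf array 1 (12 of 17), and after block centring these were -0.15, -0.02 and -0.04. In tassel 2 were at least 1.5-fold higher (met2 and gtc102) and 2 at least 1.5-fold lower. Protein folding genes had -0.24 in tassel (7 of 9 below 0), -0.11 in seedling leaf (4 of 7), 0.05 on adult leaf array 1 (3 of 8) and 0.53 on array 2 (2 of 5), and block centring gave -0.26, 0.06, -0.01 and 0.37. Aquaporin genes had medians between -0.02 and 0.07 in tassel, seedling leaf and adult leaf array 1. Starch and sucrose genes had -0.06 in tassel (15 probes), -0.01 in seedling leaf (10) and -0.05 on adult leaf array 1 (12). The largest values in these profiles were sus1 in tassel, and du1 (0.88) and the invertase gene ivr2 (-0.69) in seedling leaf. Block centring gave du1 1.09 and ivr2 -0.30 in seedling leaf. On adult leaf array 2 as deposited du1 had -0.79 and ivr2 0.94, and the median of the group was 0.41 (5 of 6 above 0).

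Nitrogen assimilation genes had a median of 0.25 in tassel (7 of 10 above 0), 0.28 in seedling leaf (6 of 9) and 0.00 on adult leaf array 1 (5 of 10), and block centring gave 0.29, 0.10 and 0.01. A probe of the nitrite reductase gene NIR had 0.71 in tassel and 0.28 in seedling leaf, with -0.10 and -0.07 at its second probe, and gln3, a further glutamine synthetase gene, 0.30 and 0.63, while gln4 in seedling leaf was the lowest of the group. Sulfur and methionine genes had 0.01 in tassel, -0.17 in seedling leaf and -0.03 on adult leaf array 1, and all 3 changed sign with block centring (-0.03, 0.07 and 0.06). Small GTPase genes had -0.26 in tassel (3 of 5 below 0), 0.33 in seedling leaf (4 of 4 above 0) and 0.01 on adult leaf array 1, and the seedling leaf median was 0.01 with block medians at 0.

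The floral and pollen lists touch on the tassel title. Pollen and tassel genes had a median of 0.47 in tassel (5 of 6 above 0, 0.27 with block medians at 0), 0.06 in seedling leaf (4 of 5) and 0.15 on adult leaf array 1 (4 of 5). The same list had 0.46 in root (5 of 5 above 0, 0.41 with block medians at 0) and 0.27 in immature ear (3 of 5). A high median of this list was therefore not particular to the tassel profile. In tassel the male gametophyte genes mgs2 (0.71 and 0.47) and mgs1 (0.47 and 0.14) were above 0 at both probes of each and the pollen polygalacturonase gene PG2C had 0.59. MADS-box genes had 0.13 in tassel (6 of 10 above 0, and a median of -0.01 after block centring), 0.17 in seedling leaf (6 of 8) and 0.02 on adult leaf array 1 (5 of 9). In tassel ZAG3 (0.64) and si1 were at least 1.5-fold higher, but neither was with block medians at 0. A ratio shows change and not presence, so these values do not tell a tassel from an ear. The seed globulin list held 4 probes of 2 genes, and the 2 glb2 probes had 0.36 and -0.63 in tassel, 0.92 and -0.27 in seedling leaf and 0.00 and 0.44 on adult leaf array 1.

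The probes chosen by the naming rule were also looked up on the 2 arrays of 8 h of high UV-B in the second value table, whose organ the labels do not give and which was normalized separately. Of 100 such probes with a value on both of those arrays, 1 was past 1.5-fold the same way on both. The share of all probes past 1.5-fold on both was not counted, so this count measures neither agreement nor its lack. This was psbs1, at -0.90 and -0.82 there, against 0.27 in tassel, -0.43 in seedling leaf and 0.17 and 0.81 on the adult leaf arrays.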

How the data were processed

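Spotted 2-colour arrays set UV-B treated against untreated maize tissue. The authors deposited 1 value for each spot, read here from the values as a log2 ratio of the channels; the background correction, normalization, filter and log base behind it are not given in the sources used here. Direction was taken as UV-B over control by assumption. Repeated columns were found by a constant difference between columns and used once. Each array's median was set to 0 and the 3 consecutive spots of a probe within a block of 2116 spots were averaged. Genes came from the platform annotation, and RefSeq's list for Zm-B73-REFERENCE-NAM-5.0, from which only gene symbols were taken, held 314 of the 329. No sequence was used here.

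One limma fit (version 3.58.1, R 4.3.3) with 1 mean per group held tassel, seedling leaf, adult leaf and the pair of CA against PE bag arrays, which with adult leaf gave the spread. P-values were Benjamini-Hochberg adjusted over all probes tested, at 0.05. The fit was tested on simulated data. Python 3.11.15 made the tables. Named genes were the highest and lowest in each organ, the most alike over the profiles, those of smallest p in each contrast and up to 3 of each gene list; the 8 each way most alike in tassel, seedling leaf and adult leaf array 1 were added after adult leaf array 2 was seen to run opposite. The members and lists were chosen with earlier results of these data known. Alternatives were other centrings, scales, spot rules, signs, left-out arrays and a replicate block.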

Additional observations from a re-analysis of the deposited data

Results flagged for a closer look

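One set of large ratios lay in values that the comparisons did not use. Seedling leaf array 1 held 997 probes that its less filled copy did not, and 167 of them were at least 2-fold higher (95) or lower (72), which is 16.8%, against 1.53% of the 4629 probes present in both columns. Array 1 held values at 99.2% of spots and its copy at 78.8%, and why the copy lacks the others is not stated. Whether these are weak or noisy spots was not tested. No groups of 4 or more distinct arrays were available for a search for outlying samples, and no difference between organs passed its test.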

How the results depend on the processing

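In adult leaf the limma fit called 0 probes with array medians at 0, as deposited, with block medians at 0 and with 1 or both swapped arrays turned. It called 3 with equal scale, 2 each with the median of the 3 spots, with all 3 spots needed and with plate medians at 0, and 15 with the adult leaf arrays alone. With the replicate block it called 31 (30 higher, 1 lower, none named). That block called 1 probe in seedling leaf minus adult leaf and 7 in tassel minus adult leaf. Same-numbered arrays share only a number in the labels, and their deviations correlated at 0.11 over 1962 probes. Tassel minus seedling leaf had 2 calls with the median of the 3 spots and 2 with plate medians at 0. Leaving out 1 array at a time gave 7 to 493 calls in adult leaf, 0 to 533 in seedling leaf minus adult leaf, 0 to 619 in tassel minus adult leaf and 0 to 98 in tassel minus seedling leaf. The cause was not tested, beyond the fewer arrays that give the spread in such fits.

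Past 2-fold either way, tassel had 69 probes, 32 with block medians at 0 and 35 with plate medians at 0. Seedling leaf had 71, 30 with equal scale and 238 with the fuller column, which holds more probes. Adult leaf array 1 had 8, 5 with block medians at 0, 94 with equal scale and 5 with all 3 spots needed. Adult leaf array 2 had 111, 35 with equal scale and 70 with all 3 spots needed; as deposited 40 were higher and 115 lower there. In seedling leaf as deposited 79 were higher and 15 lower, and with plate medians at 0 the split was 32 and 32. A 1.5-fold threshold gave 517 in tassel, 570 in seedling leaf and 129 and 463 on the adult leaf arrays. Plate medians and the turn of adult leaf array 2 alone were chosen after seeing the data. The counts of probes with 1 sign in tassel, seedling leaf and adult leaf array 1 stayed within 1.5 times. Of 381 values of named probes, 77 moved by over 0.25 (log2) with block medians at 0 and 56 with plate medians at 0, and 39 of 106 did when the probes of a gene were averaged. Correlations between tassel, seedling leaf and adult leaf array 1 kept their sign in every setting, between 0.07 and 0.38. Missing values limit adult leaf array 2.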
